A study of Physcomitrium patens with 47 samples.

Results

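In the moss Physcomitrium patens, 43 of the 32926 counted genes had lower transcript levels in plants that lacked either of 2 respiratory proteins than in wild type (WT), at each of 3 times of day. These genes were chosen from the same libraries that are described here. For each gene, counts scaled to a common library total in genes (CPM) were averaged within a group as log2(CPM + 1), and all 6 differences between a knockout and WT at the same time had to be at most -0.75. The gene also had to hold its level over the day in WT (steps of less than 0.5 log2 units from one time to the next), to average under 1000 CPM in WT and to reach 10 CPM in at least 1 of the 9 groups. Genes whose identifiers begin with Pp3c2_, Pp3c25_ or Pp3c27_ were left out by the rule, whereas those of Pp3c20 to Pp3c24 and Pp3c26 were kept. Of the 5545 genes that met these other conditions, 43 met the limit on the differences, fewer than the 150 that the rule allowed. Before the other conditions, 398 genes had all 6 differences at most -0.75. The last member was Pp3c7_18930, whose smallest fall was -0.77, and the first gene outside was Pp3c11_8730, at -0.72.

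COX11 helps to assemble cytochrome c oxidase, the respiratory complex IV, which passes electrons from cytochrome c to oxygen, whereas NDUFA5 belongs to complex I, the NADH dehydrogenase through which electrons from NADH enter the chain. In green tissue the respiratory chain works beside photosynthesis, and it is the main route to ATP from stored carbon during the night. Plant mitochondria also hold an alternative oxidase, which takes electrons from ubiquinone to oxygen without passing complex IV. The series asks how loss of these complexes bears on the metabolism of the moss over the start of the day.

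Each target gene had been disrupted within a segment by an antibiotic resistance cassette through homologous recombination, in 2 lines per gene: 150 and 152 for COX11 KO, 46 and 48 for NDUFA5 KO. All knockout libraries therefore carry such a cassette, and its presence and the loss of the gene cannot be told apart in a contrast with WT. Protonema (the filamentous stage) mixed with young gametophores (the leafy shoots) grew over liquid medium in closed boxes with 12 h of light and 12 h of darkness. Plants were frozen 0, 2 and 6 h after the lights came on (zeitgeber times ZT0, ZT2 and ZT6), at ZT0 in dim green light after a night in foil-wrapped boxes, and at ZT2 and ZT6 in the lit chamber. WT had 6, 4 and 8 libraries at ZT0, ZT2 and ZT6, COX11 KO had 5, 5 and 5, and NDUFA5 KO had 4, 5 and 5. Libraries were made from the 3′ ends of messenger RNA, so that a transcript's count does not grow with its length. They held 4060158 to 10349604 counts in genes, with a median of 5659267. The identifiers are not paired with gene names here (0 of them were found in the reference table), so the tissue, the targeted genes and the functions of the members could not be checked or described by name.

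Several libraries stood apart in these genes. WT library 4 at ZT0 was the lowest and WT library 4 at ZT2 the highest of the 18 WT libraries for the members with the deepest falls. Among the knockouts, COX11 KO 150-2 at ZT6, NDUFA5 KO 48-1 and 48-2 at ZT2 and NDUFA5 KO 48-1 at ZT6 held more of these transcripts than the rest. NDUFA5 KO 46-3 at ZT6 is line 46 by its title and line 48 by another label; the title was followed. At ZT2 the WT libraries and both line 48 libraries carry sample codes with the letter A, and the 3 line 46 libraries codes with the letter Z. The labels do not explain the letter.

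Together the 43 genes took 0.487% ± 0.075 of the counts in genes in WT (SD, n = 18, range 0.345% to 0.641%) and 0.157% ± 0.0334 in the knockouts (n = 29, range 0.0959% to 0.223%). Their summed level, in CPM on TMM-scaled library totals as for all levels below, was 5152 ± 774 in WT (3830 to 6826) and 1507 ± 257 in the knockouts (999 to 2070). No knockout library reached the lowest WT library. In RNA from whole tissue, fewer cells of a type that expresses a gene and less of its RNA per cell cannot be told apart. Taken gene by gene, the mean over WT libraries ranged from 8.04 to 1028 CPM, with a median of 26.2 CPM. Of the 43 members, 27 averaged under 50 CPM in WT and 5 over 300 CPM. No member was at 0 in any WT library, whereas 19 were at 0 in at least 1 knockout library. For 12 members, all 29 knockout libraries lay below all 18 WT libraries, which was the case for 0.363% of the 18460 genes tested. The rule used these contrasts, so nothing is read from that share.

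**Figure D1:**
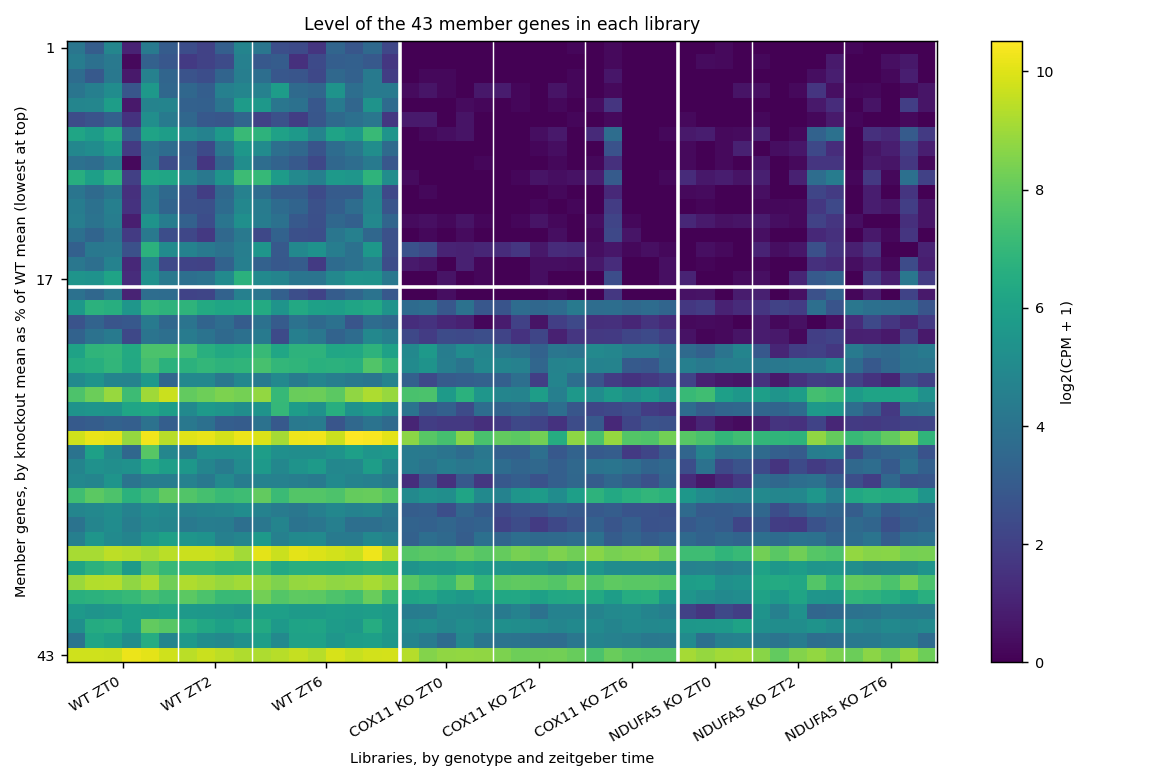
Level of each of the 43 genes, as log2(CPM + 1), in each of the 47 libraries (columns, by genotype and zeitgeber time), with genes ordered by the knockout mean as a percentage of the WT mean. The 17 genes above the horizontal line are at or near 0 in most knockout libraries, whereas the 26 below it keep a visible level there.

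The members fell into 2 classes by how much transcript was left, a division made after their values had been seen. In 17 members the mean over knockout libraries was under 5% of the WT mean (0.241% to 4.96%), and in the other 26 it was 8.55% to 44.9%. The 17 were also the first 17 in the order of the rule. They were genes of low abundance in WT, with means of 8.04 to 63.3 CPM, and on average 14.6 of the 29 knockout libraries held no count of them (4 to 25). The other 26 averaged 9.88 to 1028 CPM in WT, and only 2 of them, Pp3c21_6170 and Pp3c12_25990, had any knockout library at 0 (15 and 2 libraries). Pp3c21_6170 was the member next above the 5% limit, at 8.55%.

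Summed over the 17, the level was 360 ± 203 CPM in WT (38.8 to 782) and had a median of 3.79 CPM in the knockouts (0.330 to 65.1). The lowest WT library was ZT0 library 4, at 38.8 CPM, and the next lowest was ZT2 library 2, at 132. The high knockout libraries were NDUFA5 KO 48-2 at ZT2 with 65.1, 48-1 at ZT6 with 60.5 and 48-1 at ZT2 with 54.6 CPM, and COX11 KO 150-2 at ZT6 with 48.2 CPM. NDUFA5 KO 46-2 and 48-2 at ZT6 held 13.6 and 13.1 CPM, and the remaining knockout libraries 7.33 CPM or less. Without the 4 high libraries the knockout median was 2.89 CPM and the highest value 13.6 CPM. At each time the groups did not overlap. Across times they did, through WT library 4 at ZT0. Summed over the 26, the level was 4792 ± 679 CPM in WT (3679 to 6208) and 1495 ± 249 CPM in the knockouts (998 to 2063), with no overlap across times.

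**Figure D2:**
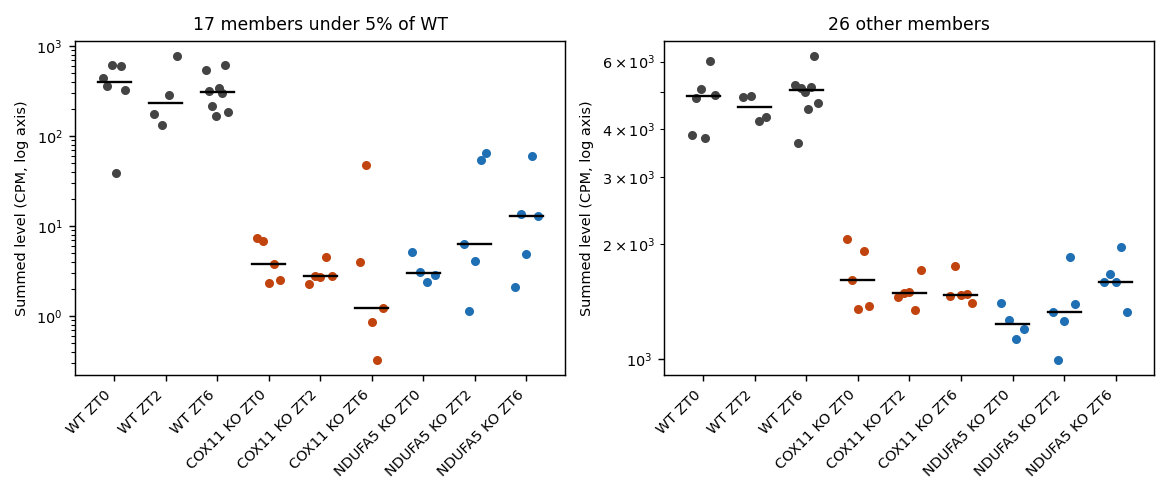
Summed level in CPM (log axes) of the 17 members with under 5% of the WT mean left (left) and of the other 26 (right); each point is a library and each bar a group median. The 17 span 38.8 to 782 CPM in WT and 0.330 to 65.1 CPM in the knockouts, and the 26 span 3679 to 6208 and 998 to 2063 CPM.

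Pp3c6_15620, the member with the deepest fall by the rule, was also the most abundant of the 17. In WT it ranged from 7.33 to 88.8 CPM at ZT0 (median 62.8), was 30.2, 24.1, 50.2 and 138 CPM at ZT2 and ranged from 25.2 to 139 CPM at ZT6 (median 57). In COX11 KO it was 0, 0.175, 0.308, 0.474 and 0 CPM at ZT0, 0, 0, 0.304, 0.644 and 0 CPM at ZT2, and 1.40, 12.6, 0, 0 and 0.176 CPM at ZT6. In NDUFA5 KO it was 0.624, 0.810, 0.202 and 0.241 CPM at ZT0, 0.907, 0, 0.187, 8.85 and 14.3 CPM at ZT2, and 0, 1.76, 1.32, 7.18 and 2.48 CPM at ZT6. The knockout libraries above 5 CPM were thus 150-2 at ZT6, 48-1 and 48-2 at ZT2 and 48-1 at ZT6, the same libraries that stood out in the sum. They overlapped WT only through library 4 at ZT0.

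Pp3c16_3130, the second by the rule, had a mean of 23.1 CPM over the WT libraries (0.647 to 56.4) and no count in 18 of the 29 knockout libraries. All 4 NDUFA5 KO libraries at ZT0 held none, against 775 counts over the 6 WT libraries, so its level there was at least 201-fold lower, computed against a floor of 3 counts over the group. At ZT2 the 5 NDUFA5 KO libraries held 13 counts, all from 48-1 and 48-2 (0.644 and 1.55 CPM), and the ratio of WT to knockout was 47.3 (95% counting interval 27.4 to 89.4). The highest knockout library, 48-1 at ZT6, reached 2.87 CPM.

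In each contrast with WT, the members named for the lowest fitted fold changes were all of the 17, and few of their reads were found in the knockouts. Over the 5 COX11 KO libraries at ZT0, Pp3c7_3350 had 1 count against 1981 in 6 WT libraries, a ratio of 1874 with a wide interval of 336 to 74070, and Pp3c3_34230 had none and was at least 216-fold lower. At ZT2, Pp3c23_9820 had 2 counts in COX11 KO and a ratio of 678 (187 to 5609), and Pp3c20_17730 had none and was at least 89-fold lower. At ZT6, Pp3c10_18650 and Pp3c15_500 had 1 count each in COX11 KO, with ratios of 738 (132 to 29183) and 210 (37.4 to 8329). These intervals cover counting error only.

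In NDUFA5 KO at ZT0, Pp3c6_480 had no count and was at least 87.1-fold lower, beside Pp3c16_3130. Pp3c14_20550, the member with the smallest share left (0.241% of the WT mean), had no count in 25 of the 29 knockout libraries. It was at least 99.6-fold lower at ZT2 and had 1 count at ZT6, a ratio of 222 (39.5 to 8780). Pp3c10_18650 had 6 counts in NDUFA5 KO at ZT6 and a ratio of 126 (57.6 to 343). In Pp3c14_20550, Pp3c15_500 and Pp3c10_18650 the 29 knockout libraries lay below all WT libraries, the 3 of the 17 of which this held, against 9 of the 26.

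Among the 26, the members most abundant in WT were Pp3c21_8940 and Pp3c1_23670. Pp3c21_8940 ranged from 466 to 1239 CPM at ZT0 (median 981), was 1069, 1155, 914 and 1179 CPM at ZT2 and ranged from 554 to 1466 CPM at ZT6 (median 1136) in WT. In COX11 KO it was 411, 222, 170, 404 and 181 CPM at ZT0, 257, 231, 313, 91.4 and 418 CPM at ZT2, and 182, 468, 209, 195 and 314 CPM at ZT6. In NDUFA5 KO it was 217, 181, 125 and 155 CPM at ZT0, 123, 119, 112, 432 and 263 CPM at ZT2, and 134, 164, 254, 411 and 116 CPM at ZT6. The groups did not overlap at any time, and the highest knockout library, COX11 KO 150-2 at ZT6, lay just above the lowest WT library, library 4 at ZT0. At ZT2 the 2 line 48 libraries lay above all 3 line 46 libraries.

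Pp3c1_23670 kept the largest share of its WT level, 44.9%. Its WT libraries ranged from 848 to 1198 CPM at ZT0 (median 874), 608 to 810 CPM at ZT2 and 596 to 940 CPM at ZT6 (median 781). It was 648, 376, 439, 454 and 438 CPM in COX11 KO at ZT0, 343, 295, 301, 311 and 268 CPM at ZT2, and 185, 278, 229, 218 and 218 CPM at ZT6. In NDUFA5 KO it was 549, 458, 540 and 545 CPM at ZT0, 401, 255, 378, 455 and 350 CPM at ZT2, and 285, 407, 311, 460 and 293 CPM at ZT6. Within each time the groups did not overlap, and WT and both knockouts alike had their highest mean at ZT0.

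Pp3c7_18930, the member nearest the limit, owed that place to NDUFA5 KO at ZT6, where it was 263, 244, 187, 322 and 188 CPM against 362 to 561 CPM in WT (median 455). At ZT0 the same knockout held 57.4, 59.5, 37.4 and 40.8 CPM, against 300 to 649 CPM in WT and 227, 169, 137, 276 and 124 CPM in COX11 KO. In NDUFA5 KO it was lower at ZT0 than at ZT6 in every library.

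The median difference from WT over the 43 genes, on the log2(CPM + 1) scale with library totals, was -2.07, -2.21 and -2.46 at ZT0, ZT2 and ZT6 in COX11 KO. In NDUFA5 KO the medians were -3.12, -2.37 and -2.29. Over all tested genes the median on this scale was 0.21, 0.16 and 0.18 in COX11 KO and -0.17, 0.09 and 0.15 in NDUFA5 KO. TMM scaling brought the latter medians to between -0.02 and 0.02 and gave member medians of -2.21, -2.38 and -2.55 in COX11 KO and -3.05, -2.44 and -2.43 in NDUFA5 KO. The added 1 CPM limits the fall that a scarce gene can show: a gene at 10 CPM that vanishes falls by 3.46 log2 units. On this scale the median fall of the 17 was -2.79 to -3.42 over the 6 contrasts, and that of the 26 was -1.42 to -2.52.

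By edgeR's quasi-likelihood test at a false discovery rate (FDR) of 0.05, 43, 43 and 43 members were lower in COX11 KO than in WT at ZT0, ZT2 and ZT6, as were 20.7%, 16.2% and 23.1% of all genes tested. In NDUFA5 KO the counts were 43, 41 and 43, beside 31.6%, 21.1% and 20.5% of all genes. The rule used these contrasts, and the counts are given as a description. The members not called at ZT2 in NDUFA5 KO, Pp3c21_6170 (adjusted p = 0.0598) and Pp3c24_13160 (adjusted p = 0.201), were named after their values were seen. Both had line 48 libraries far above those of line 46. In all 6 contrasts together, 41 members and 3.97% of all genes were called lower. Knockout and WT libraries did not overlap for 37, 42 and 42 members in COX11 KO and for 37, 37 and 40 in NDUFA5 KO, beside 7.84%, 17.2% and 11.4% and then 18.4%, 17.5% and 9.49% of all genes. All 43 members lay below the WT mean in each line at each time, except in line 48 at ZT2, where 41 did.

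The rule averaged over the libraries of both lines of a knockout, so the median falls by line and by letter are given as a description only. In COX11 KO, line 150 gave -2.04, -2.38 and -2.03 at ZT0, ZT2 and ZT6, and line 152 gave -2.25, -2.29 and -2.52. Libraries of the letter that most WT libraries of the time carry (Z at ZT0 and ZT6, A at ZT2) gave -2.07, -2.26 and -2.44. At ZT0 these were all the COX11 KO and WT libraries. In NDUFA5 KO, line 46 gave -3.04, -2.85 and -2.43 and line 48 gave -3.11, -1.66 and -2.11. The value within letter A at ZT2 is also -1.66, since the letter A libraries of NDUFA5 KO at that time are those of line 48, and the 2 cannot be told apart.

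The 17 members varied more among WT libraries than the 26 did, and part of this spread came from 2 libraries, library 4 at ZT0 and library 4 at ZT2. Over all 18 WT libraries and the 3 times, the highest exceeded the lowest by a median of 21.1 times over the 17 (9.26 to 160), against 3.21 times over the 26. Without those 2 libraries the medians were 9.18 times (5.00 to 21.1) and 3.11 times, in values computed after the libraries had been seen to stand apart. The SD within WT groups had a median of 1.14 log2 units in the 17, 0.47 in the 26 and 0.22 in all genes that met the other conditions of the rule, and without the 2 libraries 0.73, 0.46 and 0.22. After the mean of each time was subtracted, the 136 pairs among the 17 had a median Pearson r of 0.84 and a median Spearman rho of 0.76 over the 18 WT libraries. Without the 2 libraries these were 0.59 and 0.56 over 16 libraries. The median r was 0.29 for pairs of the 26 and 0.011 for pairs of all 5545 genes. These correlations are descriptions across libraries that share their depth and scaling between genes.

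The mean deviation of the 17 from their time's mean was -2.47 log2 units in WT library 4 at ZT0 and 1.38 in library 4 at ZT2. At ZT0 libraries 3 and 5 lay above the mean, at 0.93 and 0.97, and at ZT6 library 7 was highest, at 0.98, and library 4 lowest, at -0.81. In the knockouts, where the levels were near 0, the median r of the 17 was 0.66 and the median rho 0.57 over 29 libraries. Without COX11 KO 150-2 at ZT6, NDUFA5 KO 48-1 and 48-2 at ZT2 and NDUFA5 KO 48-1 at ZT6 they were 0.10 and 0.11 over 25 libraries, so the value in the knockouts rested on these 4.

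**Figure D3:**
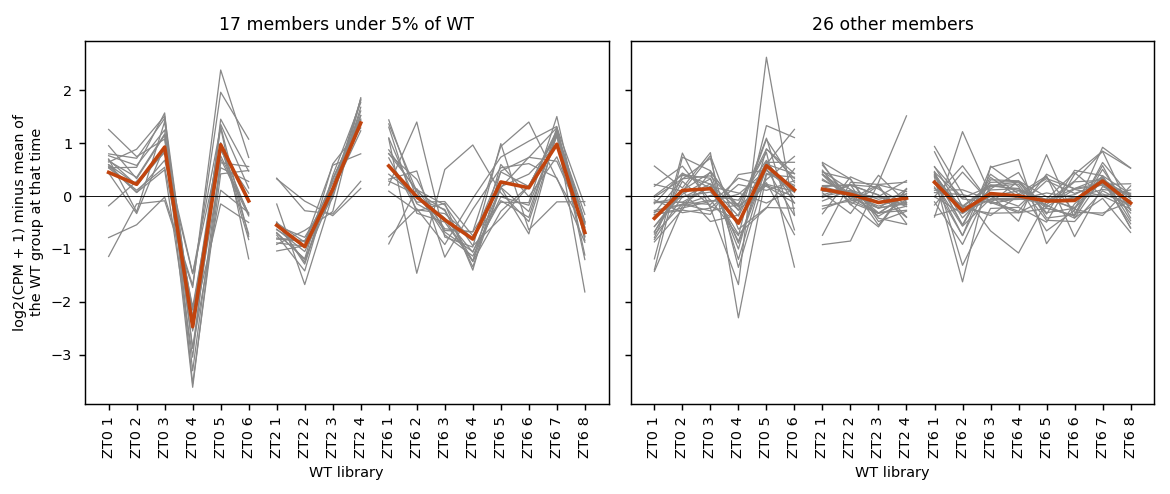
Deviation of each member from the mean of its WT group, in log2(CPM + 1), for the 18 WT libraries; grey lines are genes and the red line is their mean, with breaks between times. Most of the 17 (left) dip together in ZT0 library 4, with a mean deviation of -2.47, and peak together in ZT2 library 4, with 1.38, whereas the 26 (right) scatter around 0.

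The gene among the 26 most like the 17 in this respect was Pp3c21_6170, with r = 0.95 to the mean of the 17 over the 18 WT libraries and 0.85 without library 4 at ZT0 and library 4 at ZT2. Its WT libraries ranged from 1.08 to 17.1 CPM at ZT0 (median 12.4), were 3.38, 3.59, 8.88 and 22.7 CPM at ZT2 and ranged from 3.28 to 16.3 CPM at ZT6 (median 7.86). Of the 17 themselves, 13 had r above 0.8 with the mean of the other 16, and the lowest was Pp3c3_31160, at 0.41. Without the 2 libraries 10 had r above 0.8, and Pp3c3_31160 was at 0.19. In all, 169 tested genes had r above 0.8 with that mean, and 13 had r below -0.8. They comprised 13 of the 17, 1 of the 26 and 155 genes outside the list. Of these 155, 99 had all 6 differences from WT at most -0.75, a pattern shown by 394 of the 18460 tested genes, and 133 had all 6 below 0, as did 1817 tested genes. The 99 had been kept out of the list by low level (77 under 10 CPM in every group), by their steps over the day in WT (48) or by their identifier (8), with some counted under more than one heading. Without the 2 libraries, 76 tested genes had r above 0.8 and 9 below -0.8. The 76 comprised 10 of the 17, 1 of the 26 and 65 genes outside the list, of which 48 had all 6 differences at most -0.75 and 56 all 6 below 0.

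Membership of the 17 rested in part on the WT libraries that stood apart. Leaving out 1 library at a time, the rule gave 32 to 48 members, of which 26 to 43 were among the 43. Without WT library 4 at ZT2 it gave 32, including 22 of the 26 but only 4 of the 17. Without WT library 4 at ZT0 it gave 40, including 23 of the 26 and 5 of the 17. Without any 1 of the other libraries, at least 13 of the 17 stayed. Leaving out a WT library changes both the falls and the steps over the day in WT, on which the rule also depends. With all libraries, the smallest fall of each of the 17 was between -3.85 and -2.13, against the limit of -0.75. Which condition each lost member failed was not tabulated.

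The rule did not compare the knockouts with each other, but it required low levels in both at each time. The choice of members therefore bears on the direction in which they differ, and the shares of other genes, which were not chosen so, are given beside the members' counts without a reading of direction. At ZT0, 15 of the 43 members differed between COX11 KO and NDUFA5 KO, 14 of them higher in COX11 KO and 1 lower (edgeR's quasi-likelihood test, FDR 0.05). That is 32.6% of the members higher and 2.33% lower, where 31.6% and 28.4% of all genes tested, and 24.7% and 38.7% of the 5502 other genes that met the remaining conditions of the rule (hereafter eligible genes), were called higher and lower. More genes overall were lower than WT in NDUFA5 KO than in COX11 KO at this time (31.6% against 20.7%, as given above), and its part in the members' split was not tested. Of the 14, 13 were of the 26. With library totals in place of TMM, 18 members were higher in COX11 KO and 0 lower. That scaling also shifted all genes tested, whose median difference from WT at ZT0 was 0.21 in COX11 KO and -0.17 in NDUFA5 KO. No share of all genes is given for it.

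Pp3c3_11770 was 3.89, 2.62, 4.32, 4.03 and 4.81 CPM in COX11 KO at ZT0 and 0.416, 0.116, 0.202 and 0.482 CPM in NDUFA5 KO, with no overlap. The log2 fold change was 3.76 (SE 0.733, adjusted p = 2.65e-05). WT held 3.88 to 19.4 CPM (median 13.9). Pp3c3_31160, of the 17, was 5.27, 4.01, 1.08, 0.949 and 1.20 CPM in COX11 KO and 0, 0.347, 0.202 and 0 CPM in NDUFA5 KO, which again did not overlap. Its log2 fold change was 3.63 (SE 1.35, adjusted p = 0.0188), and the call was lost without COX11 KO 150-1. The member that was lower in COX11 KO, Pp3c14_10930, was 32.1, 35.1, 27.6, 35.1 and 30.8 CPM there and 47, 47.2, 50.9 and 65.1 CPM in NDUFA5 KO. Its log2 fold change was -0.71 (SE 0.284, adjusted p = 0.0293), and the call was lost with library totals, without COX11 KO 150-3 or without NDUFA5 KO 48-2.

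At ZT2, 16 members differed, 6 higher in COX11 KO (14% of the members, against 13.6% of all genes and 10.6% of eligible genes) and 10 lower (23.3%, against 15.2% and 18%). Of the 10 that were lower, 6 were of the 17, and without NDUFA5 KO 48-2 the counts were 6 higher and 4 lower, without 48-1 they were 8 higher and 5 lower. Pp3c21_6170 had 1 count over the 5 COX11 KO libraries (0.161 CPM in 152-1) and was 0.907, 0, 0.373, 5.15 and 8.80 CPM in NDUFA5 KO, the last 2 being those of line 48. The ratio was 103 (95% counting interval 18 to 4097), and the adjusted p was 0.00107. Pp3c23_9820, at 0.304 CPM in 150-3 and 0 in the other COX11 KO libraries, was 0.363, 0, 1.12, 6.92 and 8.97 CPM in NDUFA5 KO. Its ratio was 58.7 (15.8 to 491) and its adjusted p 0.0126, and the call was lost without 48-2.

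In the other direction at ZT2, Pp3c5_19300 was 8.22, 13.2, 2.88, 25.8 and 12.8 CPM in COX11 KO and 1.81, 0.652, 1.87, 2.74 and 2.42 CPM in NDUFA5 KO. The groups did not overlap, and the log2 fold change was 2.71 (SE 0.44, adjusted p = 7.85e-06). COX11 KO 152-1, at 25.8 CPM, lay within the WT range of 16.8 to 29.3 CPM. Pp3c12_25990 was 0.761, 3.07, 0.455, 2.90 and 3.93 CPM in COX11 KO and 0.725, 0.163, 0.373, 0 and 0.345 CPM in NDUFA5 KO, which overlapped. Its log2 fold change was 2.75 (SE 0.595, adjusted p = 0.000452).

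At ZT6, 4 members differed, 1 higher in COX11 KO and 3 lower (2.33% and 6.98% of the members, against 9.91% and 8.49% of all genes and 10.8% and 8.6% of eligible genes). Pp3c1_23670 was lower in COX11 KO with a log2 fold change of -0.64 (SE 0.15, adjusted p = 0.0021), and its libraries, given above, did not overlap. Pp3c24_13160 was 3.57, 3.82, 4.70, 2.64 and 2.29 CPM in COX11 KO and 12.6, 7.51, 2.31, 15.4 and 17.2 CPM in NDUFA5 KO. It overlapped through 46-3, the library with conflicting labels, and had a log2 fold change of -1.68 (SE 0.491, adjusted p = 0.0132), a call lost without 48-2. Pp3c16_2850 was 25.0, 29.6, 32.9, 25.5 and 22.5 CPM in COX11 KO and 14.4, 15.5, 20.0, 18.5 and 18 CPM in NDUFA5 KO. Its log2 fold change was 0.65 (SE 0.224, adjusted p = 0.0362), and the call was lost in 5 of the 10 fits that left out a library. The number of calls at ZT6 fell to 2 without COX11 KO 152-1, to 2 without NDUFA5 KO 46-2 and to 1 without NDUFA5 KO 48-2.

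**Figure D4:**
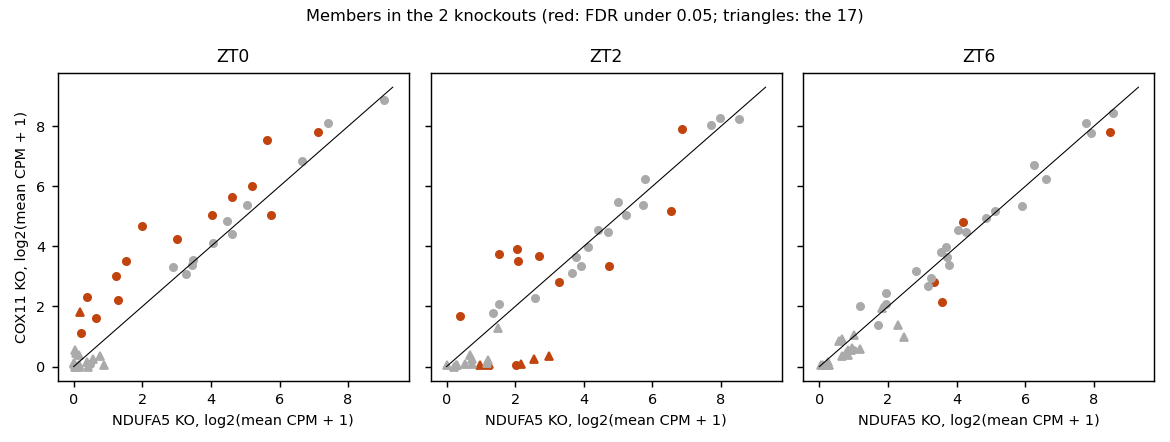
Mean level of each member in COX11 KO (vertical) and NDUFA5 KO (horizontal), as log2(mean CPM + 1), at the 3 times; the line marks equal levels, triangles are the 17 members under 5% of WT, and red marks FDR under 0.05 between the knockouts. At ZT0 the red points lie mostly above the line (14 of 15), at ZT2 on both sides (6 above, 10 below) and at ZT6 only 4 are red.

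Lines of the same knockout were compared with the 3 times averaged. Between COX11 KO lines 150 and 152, edgeR called 0 of the 43 members and 0.0% of all 18460 genes. At an unadjusted p under 0.05 it gave 1 member and 510 genes, and DESeq2 called 0 members. In some members without counts in a line at a time, the SE was so large that edgeR could call no difference. An example is Pp3c16_3130, with an SE of 4472 log2 units between the COX11 KO lines and 15300 between the NDUFA5 KO lines. For such members the lack of a call says nothing about the lines. Between NDUFA5 KO lines 46 and 48 it called 1 member lower in line 46 (2.33%, against 1.31% of all genes and 0.672% of eligible genes), Pp3c24_13160, and none higher, where 1.72% of all genes and 0.745% of eligible genes were. This gene was 10.2, 9.61 and 11.8 CPM in line 46 at ZT2 and 50.2 and 45.6 CPM in line 48, within the WT range of 30.9 to 50.9 CPM. At that time line and sample code letter cannot be told apart. At ZT0 the lines overlapped, at 12.3 and 7.63 against 9.70 and 10.4 CPM, and at ZT6 line 46 held 12.6, 7.51 and 2.31 and line 48 15.4 and 17.2 CPM. The log2 fold change of line 46 over line 48 was -1.12 (SE 0.302, adjusted p = 0.0319), and the call was lost in 7 of the 14 fits without a library. By value, 34 of the 43 members were higher in line 48. No share of all genes is given for this count, so nothing is read from it. The median difference for line 46 minus line 48 was -0.17 log2 units over the members, -0.62 over the 17 and 0.008 over all genes. The libraries high in the sum of the 17, 48-1 and 48-2 at ZT2 and 48-1 at ZT6, are all of line 48.

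Members had been required to hold their level over the day in WT, and the steps between times within a knockout were tested. Time went partly with the sample code letter. At ZT0 all WT and COX11 KO libraries and 3 of the 4 of NDUFA5 KO carried Z. At ZT2 all 4 WT libraries, 4 of the 5 of COX11 KO and 2 of the 5 of NDUFA5 KO carried A. At ZT6 most libraries carried Z. In WT from ZT0 to ZT2, time and letter cannot be told apart, and in the other steps they can be only in part. From ZT0 to ZT2, 21 members differed in NDUFA5 KO, 18 higher at ZT2 and 3 lower (41.9% and 6.98%). Among all genes tested 31.1% were higher and 29.1% lower, and among eligible genes 22% and 33.5%. The count fell to 13 without 48-1 at ZT0, to 12 without 48-1 at ZT2 and to 11 without 48-2 at ZT2. Of the 18, 7 were of the 17, which were near 0 counts at ZT0. Pp3c6_12850 had no count in the 4 libraries at ZT0 and was 0.363, 0, 0, 1.29 and 1.73 CPM at ZT2, at least 5.18-fold higher, with adjusted p = 0.0484, a call lost in 6 of the 9 fits without a library. Pp3c1_31020 had 1 count at ZT0 and was 0.181, 0.163, 0.187, 2.25 and 3.97 CPM at ZT2, a ratio of 31.1 (5.27 to 1258) with adjusted p = 0.0218, a call lost without 48-2. In both genes the 2 line 48 libraries were the highest. On the scale of the rule, their WT steps from ZT0 to ZT2 were -0.33 and -0.25.

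Pp3c7_9800 fell in NDUFA5 KO from 11.4, 8.68, 15.4 and 26 CPM at ZT0 to 6.53, 1.14, 2.80, 3.06 and 2.24 CPM at ZT2, a log2 fold change of -2.26 (SE 0.382, adjusted p = 2.29e-06). It rose again to 19.3, 12.6, 11.2, 15.4 and 19.2 CPM at ZT6, by 2.31 (SE 0.363, adjusted p = 1.09e-06). The ZT2 libraries overlapped neither those before nor those after. Pp3c1_21890 was 4.58, 14.6, 3.84 and 5.55 CPM at ZT0 and 3.99, 1.96, 4.11, 2.58 and 3.62 CPM at ZT2. Its log2 fold change of -1.22 (SE 0.364, adjusted p = 0.0037) rested on 46-2 at ZT0, without which it was -0.54 and was not called. On the scale of the rule, the WT steps from ZT0 to ZT2 were -0.18 in Pp3c7_9800 and -0.49 in Pp3c1_21890.

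From ZT2 to ZT6, 14 members differed in NDUFA5 KO, 9 higher and 5 lower (20.9% and 11.6%, against 24.1% and 27.2% of all genes and 16.6% and 30.2% of eligible genes). Pp3c12_25990 rose from 0.725, 0.163, 0.373, 0 and 0.345 CPM to 1.52, 4.0, 2.14, 1.23 and 2.48 CPM, by 2.79 log2 units (SE 0.598, adjusted p = 0.000137), without overlap. Pp3c23_6560 fell from 12.7, 10.3, 13.1, 14 and 8.11 CPM to 4.71, 2.88, 10.9, 5.54 and 6.12 CPM, a log2 fold change of -0.95 (SE 0.295, adjusted p = 0.00662). It had held only 1.46, 0.578, 1.41 and 2.41 CPM at ZT0, so ZT2 was its highest time. Pp3c24_13160 fell by 1.22 (SE 0.413, adjusted p = 0.0122), a call lost without 48-1 or 48-2 at ZT2 or without 46-3 at ZT6. On the scale of the rule, the WT steps from ZT2 to ZT6 of these genes were, in this order, -0.06, 0.01 and 0.42.

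In COX11 KO, 7 members differed from ZT0 to ZT2, 2 higher and 5 lower (4.65% and 11.6%, against 22.7% and 23.7% of all genes and 16.9% and 19.9% of eligible genes). None of the 7 was of the 17. Pp3c13_22390 was 182, 186, 52.9, 105 and 44.7 CPM at ZT0 and 26.8, 25.1, 56.2, 22.2 and 47.3 CPM at ZT2, with overlap, a log2 fold change of -1.68 (SE 0.432, adjusted p = 0.00136). Pp3c6_14360 fell from 9.16, 8.55, 10.2, 8.06 and 8.88 CPM to 3.20, 4.38, 2.58, 3.86 and 5.53 CPM, by 1.19 log2 units (SE 0.262, adjusted p = 0.00022), with no overlap. Pp3c23_6560 was 1.6, 6.11, 1.85, 6.40 and 2.26 CPM and then 6.39, 7.89, 5.31, 8.21 and 10.5 CPM, and rose by 1.10 (SE 0.323, adjusted p = 0.0047). Pp3c22_11700 rose by 0.44 (SE 0.142, adjusted p = 0.00945), from 208 to 264 CPM at ZT0 to 259 to 360 CPM at ZT2, in 5 libraries each. On the scale of the rule, the WT steps from ZT0 to ZT2 of these genes were, in this order, -0.16, -0.41, -0.12 and 0.24. Those of Pp3c13_22390, Pp3c6_14360 and Pp3c22_11700 thus had the direction seen in COX11 KO, and that of Pp3c23_6560 did not.

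From ZT2 to ZT6 in COX11 KO, 5 members differed, 2 higher and 3 lower (4.65% and 6.98%, against 17.7% and 19% of all genes and 13.6% and 16.9% of eligible genes). DESeq2 called 11 members, for which no share of all genes is given. Pp3c5_960 rose from 24.5, 43.6, 53.7, 33.8 and 60.3 CPM to 111, 80.7, 102, 121 and 108 CPM, by 1.27 log2 units (SE 0.239, adjusted p = 4.37e-05), with no overlap. Pp3c6_14360 was 8.53, 5.93, 8.0, 5.27 and 5.46 CPM at ZT6, an increase of 0.76 (SE 0.266, adjusted p = 0.022), which 3 of the 10 fits without a library did not call. Pp3c5_19300 fell to 5.74, 2.68, 1.91, 2.31 and 3.35 CPM, by 1.95 (SE 0.408, adjusted p = 0.000189). Pp3c24_13160 was 8.98, 10.2, 7.14, 13 and 5.97 CPM at ZT2 and, as given above, at most 4.70 CPM at ZT6, a fall of 1.41 (SE 0.494, adjusted p = 0.0224), also lost in 3 of the 10 fits. On the scale of the rule, the WT steps from ZT2 to ZT6 of these genes were, in this order, 0.34, -0.12, -0.25 and 0.42.

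Whether a step differed between the knockouts was tested in the same model, an addition made after the counts of each step had been seen. From ZT0 to ZT2, 6 members differed, all with the lower step in COX11 KO (14%, against 18% of all genes and 13.9% of eligible genes). In the other direction, 17.5% and 21.4% of these genes differed. DESeq2 called 11, of which 1 was in the other direction, and a fit with library totals called 11. No share of all genes is given for these alternatives. From ZT2 to ZT6, 7 differed, 6 with the lower step in COX11 KO and 1 with the higher (14% and 2.33%, against 8.64% and 10.4% of all genes and 6.72% and 12.8% of eligible genes). None of these was of the 17.

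Pp3c16_2850 had the strongest of these differences. In WT it held a narrow range, 43 to 65.9 CPM at ZT0 (median 54.6), 40.3 to 49.8 CPM at ZT2 and 49.6 to 59.8 CPM at ZT6 (median 55.1). COX11 KO held 20.1, 21.1, 29, 28 and 25.4 CPM at ZT0 and 19.2, 24.6, 14.4, 24.6 and 24.3 CPM at ZT2. NDUFA5 KO held 3.12, 2.08, 3.84 and 2.89 CPM at ZT0, far below both other genotypes, and then 41.7, 22.6 and 39 CPM in line 46 and 9.98 and 11.2 CPM in line 48 at ZT2. Line and sample code letter cannot be told apart in NDUFA5 KO at ZT2. The step from ZT0 to ZT2 differed by -3.30 log2 units (COX11 KO minus NDUFA5 KO, SE 0.375, adjusted p = 3.34e-09). The difference of the next step, 0.86 (SE 0.315, adjusted p = 0.0483), was lost in 12 of 20 fits without a library.

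For Pp3c3_11770 the step from ZT0 to ZT2 differed by -3.13 (SE 0.941, adjusted p = 0.00817): COX11 KO held 3.50, 1.90, 3.64, 0.966 and 2.18 CPM at ZT2 and NDUFA5 KO 0.725, 0.652, 0.187, 2.90 and 3.28 CPM, highest in line 48. From ZT2 to ZT6 the steps of Pp3c12_25990 differed by -3.26 (SE 0.76, adjusted p = 0.00173), with 1.71, 1.72, 1.22, 1.98 and 1.41 CPM in COX11 KO at ZT6, within its ZT2 range. Those of Pp3c5_19300 differed by -2.51 (SE 0.653, adjusted p = 0.00482), with 3.19, 1.92, 1.15, 4.92 and 3.15 CPM in NDUFA5 KO at ZT6.

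**Figure D5:**
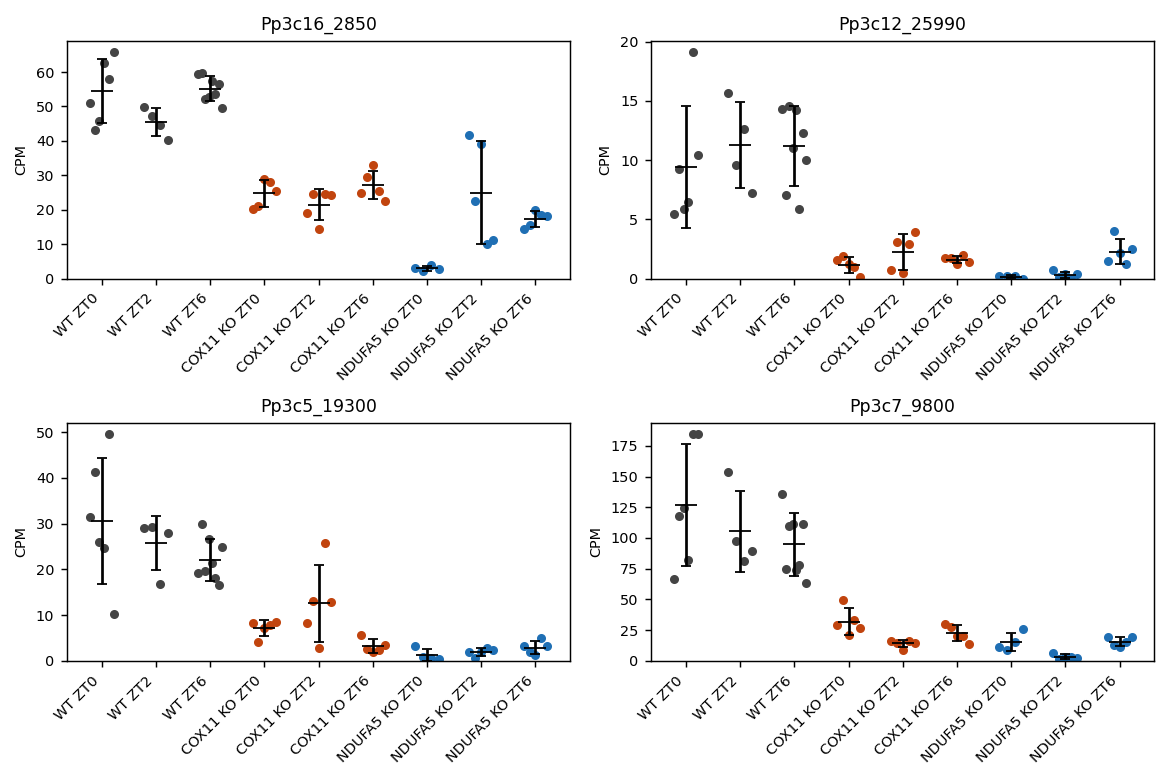
CPM of 4 members in each library by genotype and time; points are libraries, with the group mean and SD in black. Pp3c16_2850 is at 2.08 to 3.84 CPM in NDUFA5 KO at ZT0 and splits at ZT2 by line, which cannot be told apart from the sample code letter there. Pp3c12_25990 and Pp3c5_19300 are higher in COX11 KO than in NDUFA5 KO at ZT2, and Pp3c7_9800 is lowest in NDUFA5 KO at ZT2.

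The members were spread over the genome as far as their identifiers show. They carried 19 identifier prefixes, most often Pp3c6, with 5 members (11.6%, against 4.56% of the 5545 genes that met the other conditions). No members were neighbours in identifier order, and the closest pair lay 12 places apart. Of the 84 genes next to a member, 48 were tested, and 2 of these were lower than WT in all 6 contrasts, as were 3.97% of all genes tested.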

How the data were processed

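The authors deposited estimated counts per gene from 3′ messenger RNA libraries (QuantSeq). The submitters' processing notes name Bowtie2 2.2.5, SAMtools 1.6 and HTSeq 2.0.2, without their settings. No genome build was given in the sources used here. Of the deposited values, 2.35% were not whole numbers (tolerance 1e-06), in 2085 genes and in no member, and all were rounded. The tests had been planned for counts. The 5 summary lines that name no gene held 26.2% to 39.9% of each library and were left out, and 10 of 57 columns were not used. Samples were grouped by their labels, which do not say that replicates are separate cultures, so p-values measure only the spread between these libraries.

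Genes were filtered with filterByExpr (18460 kept), scaled by TMM and tested with edgeR 4.0.16 (R 4.3.3, limma 3.58.1) by the quasi-likelihood test, in one model of the 9 groups, with Benjamini-Hochberg adjustment over all genes tested. The common biological coefficient of variation was 21.8%. Printed levels are CPM on TMM-scaled totals; the rule used library totals. Intervals are exact at 95%, and the floor for a count of 0 was 3 counts over the group; both cover counting error only. Named genes were the first 2 and the last by the rule, the 2 most abundant in WT, the 2 with the lowest fitted change in each contrast with WT and, elsewhere, the 2 with the largest fitted change per direction among called members with an average log2 CPM above 1. Alternatives were DESeq2 1.42.0, library totals, no filter, other pseudocounts, a replicate block, the sample code letter and leaving out each library. The procedure was tested on simulated data. The members and lists were chosen with earlier results of these data known.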

Additional observations from a re-analysis of the deposited data

Results flagged for a closer look

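In 16 of 106 groups of 4 to 8 libraries, 1 library lay far from its group, where chance gives about 1 in 20. The groups share libraries and genes, and some hold few counts, so no excess over chance is read from this number. COX11 KO 150-2 at ZT6 was high in the summed level of all members, at 1797 CPM, of the 17 under 5% of WT, at 48.2 CPM, and of the other 26, at 1749 CPM. It was also high for Pp3c6_15620, at 12.6 CPM, and for Pp3c16_3130, at 2.10 CPM. NDUFA5 KO 48-1 at ZT6 was high in the sum of the 17, at 60.5 CPM, and in Pp3c16_3130, at 2.87 CPM. In WT at ZT2, library 3 was low in the sum of all members, at 4498 CPM (next 4998), and library 4 was high in Pp3c16_3130, at 53 CPM.

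COX11 KO 152-1 at ZT2 was high in the sum of the 17, at 4.51 CPM, and in Pp3c21_6170, at 0.161 CPM (1 count), where the others held none. COX11 KO 150-3 at ZT2 was high in Pp3c23_9820, at 0.304 CPM (2 counts), and COX11 KO 150-1 at ZT0 in Pp3c1_23670, at 648 CPM. NDUFA5 KO 46-2 at ZT0 was low in Pp3c1_23670, at 458 CPM, and high in Pp3c1_21890, at 14.6 CPM, and in Pp3c1_31020, at 0.116 CPM (1 count).

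The knockouts differed from each other, by a direct test in edgeR, in 15 members at ZT0, 16 at ZT2 and 4 at ZT6. Of all genes tested, 31.6%, 13.6% and 9.91% were higher in COX11 KO at these times, and 28.4%, 15.2% and 8.49% lower. The time steps of the knockouts differed in 6 members from ZT0 to ZT2 and in 7 from ZT2 to ZT6. Of all genes tested, 17.5% and 10.4% had the higher step in COX11 KO, and 18% and 8.64% the lower.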

How the results depend on the processing

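No result changed direction under the alternatives run. The count between NDUFA5 KO lines, 1, was 0 with 46-3 at ZT6 taken as line 48, with the replicate block or without genes of the left-out identifiers, and 2 with DESeq2. DESeq2 gave 11 members for COX11 KO from ZT2 to ZT6. For the difference of steps from ZT0 to ZT2, DESeq2 gave 11, the code letter 10 and library totals 11. Shares of all genes are not given for these alternatives, so nothing is read from the counts. The median fall was -2.01 in COX11 KO at ZT2 and -1.95 at ZT6 with a pseudocount of 2, -3.69 and -2.51 in NDUFA5 KO at ZT0 with 0.5 and 2, and -1.66 in NDUFA5 KO at ZT2 within letter A. The cause was not tested.

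Without 1 library, members called between the knockouts ranged over 14 to 15, 10 to 17 and 1 to 4 at ZT0, ZT2 and ZT6, between lines over 0 to 0 (COX11 KO) and 0 to 1 (NDUFA5 KO), over the steps 7 to 9 and 4 to 6 in COX11 KO and 11 to 22 and 11 to 14 in NDUFA5 KO, and for the difference of steps 4 to 9 and 5 to 8. The median falls ranged over -2.22 to -1.85, -2.30 to -2.13 and -2.54 to -2.29 in COX11 KO and -3.53 to -2.94, -2.68 to -2.17 and -2.42 to -2.24 in NDUFA5 KO. The rule gave 32 to 48 members, and 55 with TMM, of which 41 were among the 43.

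Equal replicate numbers did not pair the libraries: deviations correlated at -0.32 to 0.518 between times and -0.345 to 0.274 between knockouts. With the replicate block, 15, 16 and 3 members were called between the knockouts. In simulations of the comparisons between the knockouts, 68% to 78% of genes changed by 1 log2 unit and 93% to 97% by 2 were recovered. The simulations gave all 18460 genes the same biological variation and changed 100 by each amount. Members varied more, with a median SD within knockout groups of 0.49 log2 units. It was 0.21 in genes that met the other conditions of the rule. The recovery is therefore not read as that of the members.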
